A study of Mus musculus with 8 samples.

Results

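The genes described here are those that the deposited tables place in the KEGG entry for protein processing in the endoplasmic reticulum (ER), the membrane system in which secreted and membrane proteins are made and folded. The entry held 162 genes. The 13 that the tables also list under N-glycan biosynthesis, and the stress response genes Atf4 and Ddit3, were set aside, which left 147 of the 34745 genes in the tables. RNA sequencing had been done on intestinal crypts of wild-type C57BL/6 mice at day 5, with 4 libraries of animals on dextran sulfate sodium (DSS), which damages the gut lining, and 4 of animals on DSS+CA, where CA is cholic acid, a bile acid, by the title of the series (DSS_CA below). DSS is common to both groups, and untreated crypts are not part of the comparison. The labels give no gut segment, dose or route, and do not say whether the replicates are separate animals, so that the spread behind the p-values may be partly or wholly technical. Total counts were 13334012 to 17973196 per library. Markers were read in CPM (counts scaled to a common library size). The 7 genes of the intestinal epithelium at large, among them Epcam and Krt8, summed to 6871 to 9141 CPM per library, and 5 genes of crypt base stem cells, among them Olfm4, to 197 to 1411 CPM. The 7 genes of absorptive cells, which are highest on the villus, summed to 21826 to 110305 CPM, so that the libraries are epithelial but not free of absorptive cell transcripts. These ranges are over the libraries of both groups and do not show whether the groups differed.

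A protein enters the ER through the Sec61 channel while it is being made. Inside, chaperones such as BiP hold it, disulfide isomerases join its cysteines, and lectins read its sugars to learn whether folding is complete. Folded cargo leaves in COPII vesicles, and protein that stays misfolded is pulled back into the cytosol, tagged with ubiquitin and degraded, a route called ER-associated degradation. When unfolded protein builds up, the sensors Ire1, Perk and Atf6 switch on the unfolded protein response, which enlarges this machinery. In the gut, Paneth and goblet cells have a large ER because they secrete antimicrobial proteins and mucus, and mice without Xbp1 in the epithelium lose Paneth cells and develop spontaneous inflammation of the small intestine.

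Of the 147 genes, 124 passed the filter on low values, a deposited FPKM (the count divided by gene length and by library size) of at least 1 in at least 4 libraries. In 112 the FPKM was at least 1 in all 8 libraries, and 1 gene, Bag2, passed through a single group only, DSS_CA. The 23 others did not pass and have no test here, and 6 of these had no count in any library (among them Cryaa and Sel1l2). By FPKM, averaged over the 8 libraries, the most abundant gene was P4hb, which encodes protein disulfide isomerase, at 669. It was followed by the cytosolic chaperone gene Hspa8 at 196, the vesicle coat gene Sar1b at 189, the lectin chaperone gene Calr at 174 and Hsp90b1, the ER form of Hsp90, at 158. Hspa5, which encodes BiP, was at 129.6 FPKM.

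As a whole, the transcripts of these genes summed to a higher scaled level in DSS_CA, while no single gene passed the test. Their share of the raw counts was 1.88%, 1.43%, 1.52% and 1.68% in DSS 1 to 4, whereas DSS_CA 1 to 4 had 2.67%, 2.39%, 1.74% and 2.34%. DSS_CA 3 lay below DSS 1 in this share, and the other 3 DSS_CA libraries lay above all DSS libraries. After TMM scaling, which corrects for the makeup of the libraries, the summed level in CPM was 15260.1, 19369, 18236 and 16576 in DSS 1 to 4, whereas DSS_CA 1 to 4 had 20509.8, 20556.5, 23520.0 and 20078. On this scale each DSS_CA library lay above each DSS library. P4hb, Hspa8 and Hspa5 made up 26.9% of this sum, and without them it was 12282 to 14227 CPM in DSS and 14291 to 17149.8 CPM in DSS_CA, again without overlap. The mean log2(CPM + 1) of the 124 genes tested, in which each gene weighs the same, was 6.02, 6.01, 6.01 and 6.09 in DSS and 6.28, 6.27, 6.24 and 6.25 in DSS_CA. Over all 9913 genes tested that mean was 4.83 to 4.92 in DSS and 4.83 to 4.90 in DSS_CA. In bulk RNA a larger number of cells of a type and more RNA per cell cannot be told apart.

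By edgeR's quasi-likelihood test with Benjamini-Hochberg adjustment over all genes tested, 0 of the 124 genes were called higher and 0 were called lower in DSS_CA, with an adjusted p of 0.259 for the smallest, that of Ssr1. Over all genes tested 0.0404% were called higher and 0.0908% lower. At an unadjusted p under 0.05, 9 of the 124 were higher and 0 lower, against 2.97% and 4.85% of all genes. DESeq2 and limma-voom also called 0 in either direction and had 9 higher each at that unadjusted limit. For 91 of the 124 genes the log2 fold change (DSS_CA against DSS) was above 0 and for 33 below 0, with a median of 0.25. Over all genes tested the median was 0.02 and 51.9% lay above 0. The groups did not overlap for 12 genes that were higher in DSS_CA (9.68% of the 124, against 3.24% of all genes) and for 0 that were lower (against 2.81%). Bag2, which passed the filter through DSS_CA only, is among both the 9 and the 12.

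The 3 libraries DSS 2, DSS 3 and DSS_CA 3 stood apart from the rest in composition, with a mean counted gene length of 1423, 1448 and 1445 bases, against 1719 to 2412 bases in the other 5. Within DSS_CA, replicate 3 was the highest or the lowest library for 114 of the 124 genes, and replicates 1, 2 and 4 for 77, 23 and 34. Within DSS, replicates 1 to 4 were at such an extreme for 78, 87, 79 and 4 genes. The same count was not made over all genes tested, so it is not a trait of these genes. Mitochondrial transcripts took 16.2%, 27.7%, 17.8% and 19.8% of the counts in DSS 1 to 4, and DSS_CA 1 to 4 had 9.72%, 14.1%, 20.5% and 13.2%. They were thus lower in 3 of the 4 DSS_CA libraries than in any DSS library, the same 3 in which the ER genes' share of the counts was above all DSS libraries, and their part in that share was not tested. Without mitochondrial genes in the library sizes the median log2 fold change of the 124 genes was 0.24. TMM scaling was rerun in that fit and offsets most of a change in library size. The value could therefore hardly move, and it does not bear on the share of the raw counts. Without those 3 libraries, which leaves 2 DSS and 3 DSS_CA libraries, edgeR called 3 of the 124 genes higher and 1 lower, against 2.36% and 4.25% of all genes. The genes were Ssr2, Bag2 and Hspbp1 (higher) and Eif2ak2 (lower), and their values are given below. The median over the 124 was then 0.22, with 85 above 0. At an unadjusted p under 0.05, 25 were then higher and 3 lower, against 12.5% and 15% of all genes. With single libraries left out, the sign of the log2 fold change turned for 48 of the 124 genes at least once, and it is given below where this concerns a gene described.

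With all 8 libraries, roles inside and on the ER membrane lay further above 0 than the cytosolic roles of the entry. The median log2 fold change was 0.44 for genes of entry into the ER (12 of 13 tested genes above 0), 0.47 for ER chaperones (8 of 9), 0.38 for disulfide bond formation (6 of 8) and 0.34 for exit in COPII vesicles (11 of 11). It was 0.28 for ER-associated degradation (16 of 22), 0.25 for glycan quality control (7 of 9) and 0.16 for unfolded protein response signalling (12 of 19). The degradation role includes soluble proteins such as Vcp and Ufd1l, so that the roles do not split strictly by location. Cytosolic ubiquitin and delivery genes had a median of 0.09 (12 of 18), and cytosolic chaperones of -0.00 (7 of 15). The roles other than signalling and the cytosolic ones together had 60 of 72 genes above 0 and a median of 0.35. Without DSS 2, DSS 3 and DSS_CA 3, the median of signalling lay below that of cytosolic chaperones. The median of glycan quality control then lay close to that of cytosolic chaperones. These medians are descriptions, and the differences between roles were not tested.

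**Figure D1:**
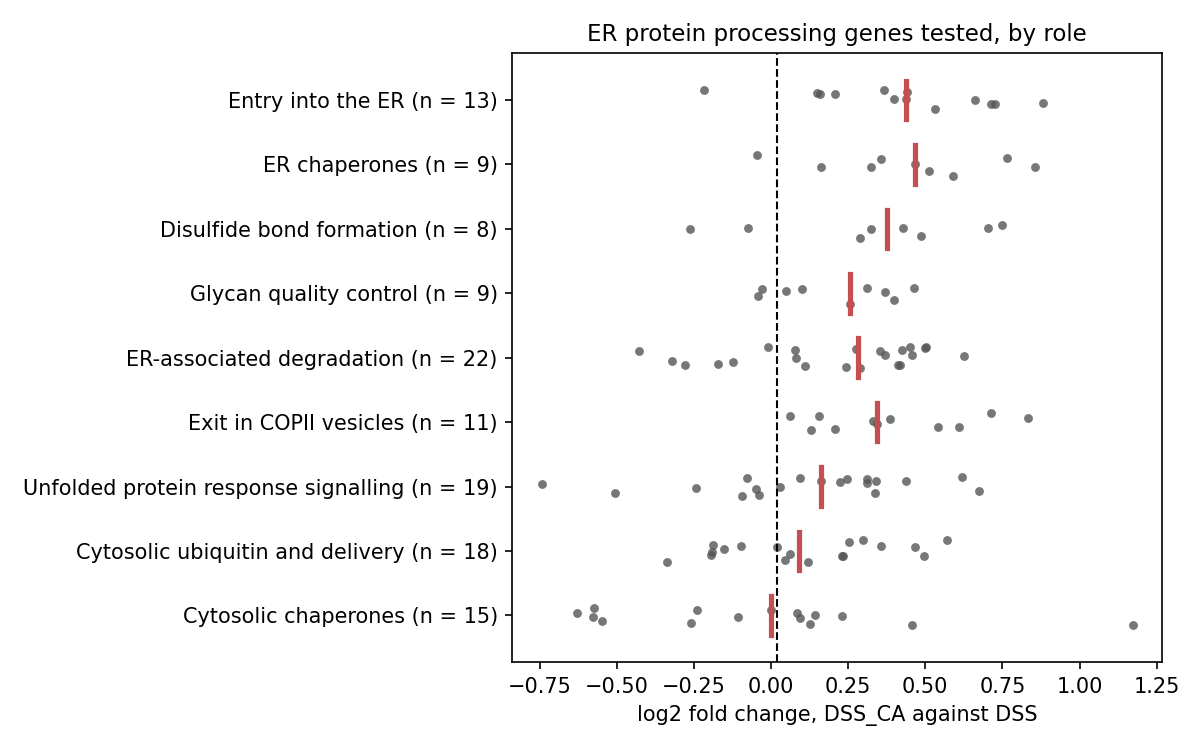
Log2 fold change (x axis, DSS_CA against DSS) of each of the 124 genes tested, in rows by role, with n the number of genes. Grey points are genes, red bars the median of the role, and the dashed line the median of all 9913 genes tested (0.02); the medians of entry (0.44) and ER chaperones (0.47) lie to the right of it, and that of cytosolic chaperones (-0.00) does not.

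Genes of entry into the ER. Ssr1 to Ssr4 encode the translocon-associated protein complex, which sits beside the Sec61 channel. Ssr1 was at 123, 96.6, 122 and 102 CPM in DSS 1 to 4 and at 195, 182, 249 and 194 CPM in DSS_CA 1 to 4. All 4 DSS_CA libraries lay above all 4 DSS libraries. The means were 111 ± 13.6 and 205 ± 29.9 CPM (SD, n = 4 each), a 1.84-fold difference (log2 fold change 0.88, SE 0.261, edgeR adjusted p = 0.259). Ssr2 was at 99.2, 175, 340.3 and 153 CPM in DSS and at 227, 289, 413 and 285 CPM in DSS_CA. One DSS library, replicate 3, lay above 3 of the DSS_CA libraries. The log2 fold change of Ssr2 was 0.66 (SE 0.393, edgeR adjusted p = 0.801), and without DSS 2, DSS 3 and DSS_CA 3 it was 1.06 (edgeR adjusted p = 0.0431). Ssr3 was at 195, 269, 116 and 181 CPM in DSS and at 254, 255, 342 and 249 CPM in DSS_CA, where only DSS 2 reached the level of the DSS_CA libraries (log2 fold change 0.53, edgeR adjusted p = 0.803). Ssr4 was at 44.3, 109, 159 and 77.0 CPM in DSS and at 80.1, 108, 218 and 106 CPM in DSS_CA (log2 fold change 0.40). For Ssr2 and Ssr4 replicate 3 was the highest library of each group, and replicate 1 the lowest.

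Sec61a1 encodes the pore of the channel and Sec61b and Sec61g its small subunits. Sec61a1 was at 214, 94.8, 258 and 185 CPM in DSS and at 375, 301, 214 and 342 CPM in DSS_CA. The groups overlapped because DSS_CA 3 was as low as DSS 1 (log2 fold change 0.71, SE 0.354, edgeR adjusted p = 0.699). Sec61a2, the paralogous pore gene, was at 12.7, 12.5, 9.70 and 10.3 CPM in DSS and 14.5, 14.0, 16.4 and 13.4 CPM in DSS_CA, without overlap (log2 fold change 0.37, edgeR adjusted p = 0.880). Sec61g ranged widely, from 20.6 to 201 CPM in DSS and from 32.9 to 414 CPM in DSS_CA, so that its log2 fold change of 0.44 (SE 0.815) was smaller than its error, and -1.04 without DSS_CA 3. Sec61b had 0.21 (SE 0.309). Ckap4, which encodes an ER membrane protein that ties ER sheets to microtubules, was at 6.99, 2.11, 8.65 and 7.52 CPM in DSS and 13.8, 9.26, 9.60 and 9.16 CPM in DSS_CA, also without overlap (log2 fold change 0.72, SE 0.410, edgeR adjusted p = 0.764). The 1 entry gene below 0 was Sec62, a channel partner with a further part in ER turnover. It was at 74.5, 169.8, 59.9 and 89.3 CPM in DSS and at 64.6, 73.6, 133 and 66.8 CPM in DSS_CA, so that 1 library of each group, DSS 2 and DSS_CA 3, stood above the rest (log2 fold change -0.22, edgeR adjusted p = 0.995, and 0.18 without DSS 2).

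Exit in COPII vesicles. Sar1 starts the coat once Preb has loaded it with nucleotide, Sec23 and Sec24 form the inner coat and pick the cargo, and Sar1b is the form needed for chylomicron export from enterocytes. Sec24d was at 186, 98.6, 130.2 and 158 CPM in DSS and at 294, 238, 219 and 269 CPM in DSS_CA. The lowest DSS_CA library lay above the highest DSS library. The means were 143 ± 37.4 and 255 ± 33.1 CPM (1.78-fold, log2 fold change 0.83, SE 0.292, edgeR adjusted p = 0.402). Sec23b was at 70.9, 60.0, 66.9 and 66.5 CPM in DSS and at 114, 96.3, 84.0 and 109 CPM in DSS_CA. It too showed no overlap, and the DSS libraries lay close together, at a mean of 66.1 ± 4.49 against 101 ± 13.4 CPM (log2 fold change 0.61, SE 0.248, edgeR adjusted p = 0.539). Preb was at 62.6, 28.3, 67.2 and 48.8 CPM in DSS and 101, 94.5, 43.6 and 100.4 CPM in DSS_CA, where replicate 3 lay among the DSS libraries (log2 fold change 0.71, edgeR adjusted p = 0.713). Sar1b spread widely, over 103 to 361 CPM in DSS and 161 to 616 CPM in DSS_CA (log2 fold change 0.39, edgeR adjusted p = 0.973), and without DSS_CA 3 its log2 fold change was -0.16. Without DSS 2, DSS 3 and DSS_CA 3, 8 of the 11 exit genes lay above 0.

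**Figure D2:**
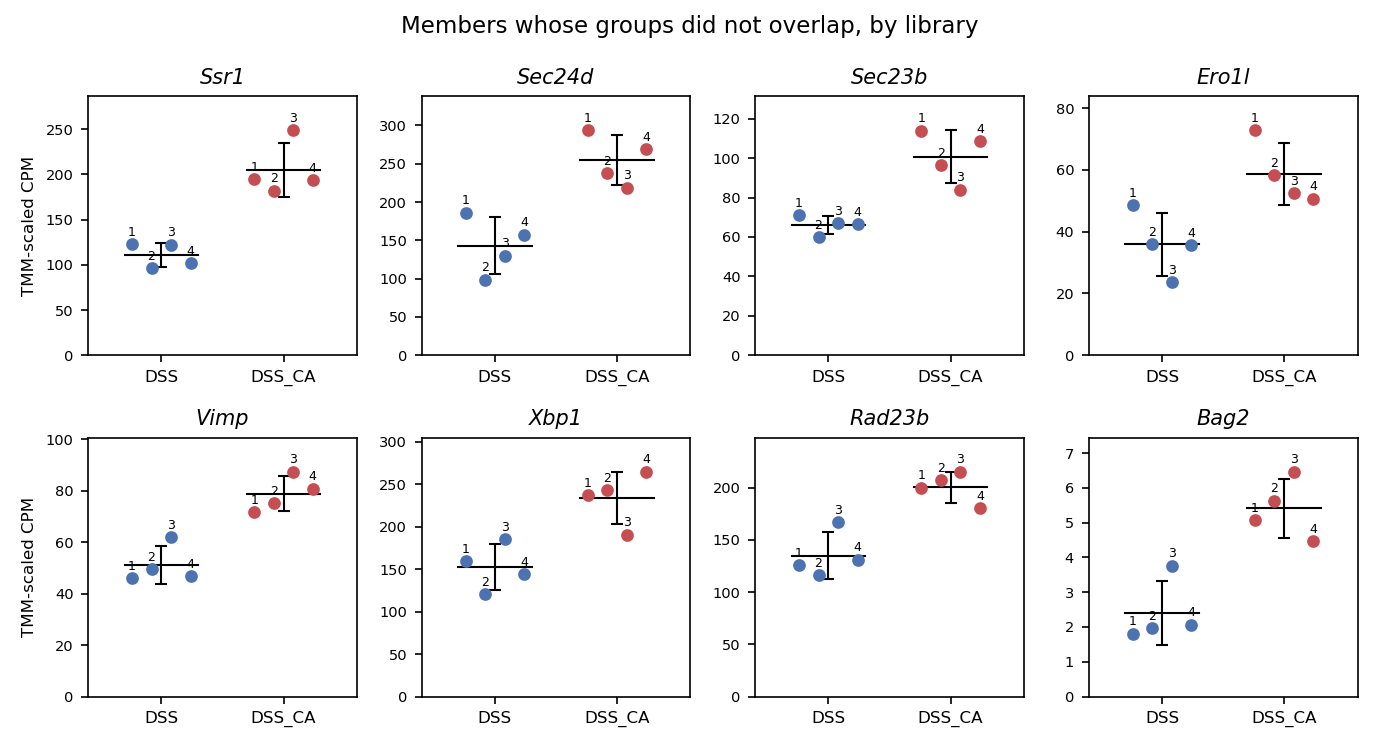
Level in TMM-scaled CPM (y axis, from 0) of 8 of the 12 genes whose groups did not overlap, in DSS (blue) and DSS_CA (red). Points are libraries marked with their replicate number, horizontal lines are means and bars are SD with n = 4; for Ssr1 the DSS libraries lie between 96.6 and 123 CPM and the DSS_CA libraries between 182 and 249 CPM.

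The ER chaperones and their co-factors include the classic targets of the unfolded protein response. Their promoters are known for a shared sequence, the ER stress element, in which the factor NF-Y binds the first part and Atf6 the second. Exact copies (CCAAT, 9 bases of any kind, CCACG) were looked for on both strands of RefSeq promoter windows (GRCm38.p6), each from 250 bases before to 50 bases after a start of the gene. At least 1 window was given for 117 of the 147 genes. The element was found in 7 of these (5.98%), against 37 (0.137%) of all 27025 genes with a window. They were Calr, Canx, Hsp90b1 and Hspa5, which are 4 of the 7 ER chaperones with a window, the isomerase gene Pdia6, and the degradation genes Derl3 and Syvn1. It was found in 0 of the 15 cytosolic chaperones with a window. The elements are printed 5′ to 3′ in the direction of the motif, with the fixed parts in capitals, to show that only the spacing and the ends are shared and the 9 bases between differ from gene to gene.
Calr, chr8:84847075-84847093, plus strand: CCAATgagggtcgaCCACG
Canx, chr11:50325800-50325818, minus strand: CCAATcaccacgctCCACG
Derl3, chr10:75893242-75893260, minus strand: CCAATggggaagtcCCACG
Hsp90b1, chr10:86705638-86705656, minus strand: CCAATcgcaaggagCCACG
Hsp90b1, chr10:86705533-86705551, plus strand: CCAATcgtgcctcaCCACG
Hspa5, chr2:34772025-34772043, plus strand: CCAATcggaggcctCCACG
Pdia6, chr12:17266491-17266509, plus strand: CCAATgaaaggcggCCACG
Syvn1, chr19:6046532-6046550, plus strand: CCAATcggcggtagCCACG

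Hsp90b1 was the one gene with a pair of copies in its window, on opposite strands, at 212 to 194 and 107 to 89 bases before the start. The stretch that holds both is printed 5′ to 3′ along the gene, which is on the minus strand, with the copies in capitals; the copy nearer the start reads as its reverse complement.
Hsp90b1 promoter, chr10:86705510-86705694, minus strand: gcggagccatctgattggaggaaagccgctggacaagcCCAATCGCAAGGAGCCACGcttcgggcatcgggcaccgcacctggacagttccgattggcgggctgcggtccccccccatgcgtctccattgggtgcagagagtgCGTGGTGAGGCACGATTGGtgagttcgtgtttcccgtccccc

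A compact form, ER stress element II (ATTGG, 1 base, CCACG), was found in 2 of the 117 genes (1.71%, against 12 or 0.0444% of all), the co-chaperone gene Dnajb11 and the degradation gene Herpud1.
Dnajb11, chr16:22857852-22857862, plus strand: ATTGGcCCACG
Herpud1, chr8:94386377-94386387, plus strand: ATTGGgCCACG
None of the printed copies overlapped a match to another motif searched. The core of the UPR element, TGACGTGG, to which Xbp1 and Atf6 bind, was in 6 genes (5.13%, against 193 or 0.714% of all), which were Mapk8, Sec23a, Sec24d, Txndc5, Ube2j1 and Vcp. The core of the ATF4 composite element, TGATGNAA, was in 4 (3.42%, against 4.51% of all). A heat shock element of 3 alternating units (GAA, 2 bases, TTC, 2 bases, GAA) was in 3 (2.56%, against 0.662%), namely Hsph1, Nploc4 and Sec62. A match is a description of the letters, and no binding was measured. Of the 9 genes with either ER stress element, 8 were tested, 7 of these had a log2 fold change above 0, and their median was 0.39.

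**Figure D3:**
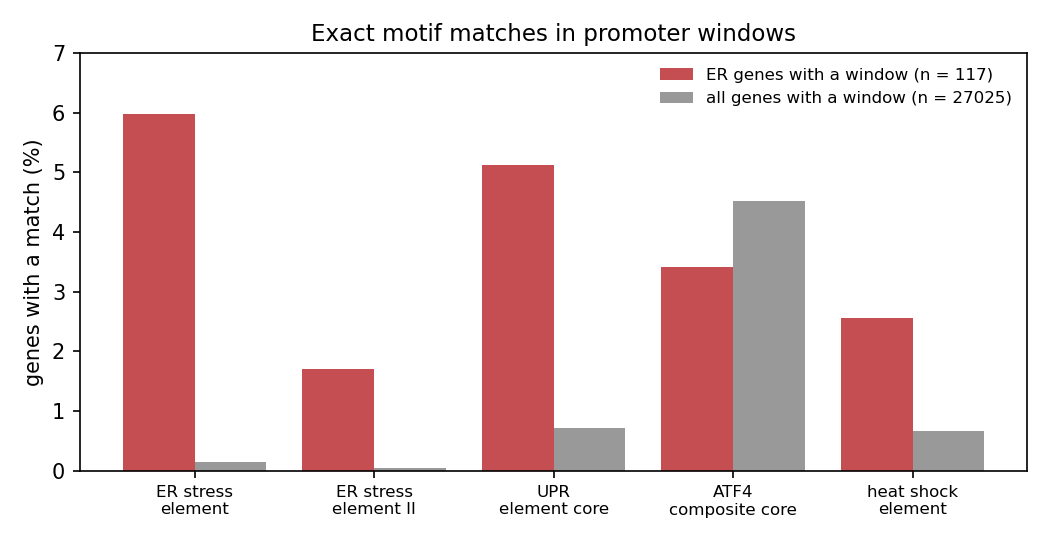
Share of genes (y axis, percent) with an exact match in a promoter window, for 5 motifs, in the 117 ER protein processing genes with a window (red) and in all 27025 genes with one (grey). The ER stress element is in 5.98% against 0.137%, while the ATF4 composite core is in 3.42% against 4.51%.

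In the crypts the chaperones with these elements did not share 1 pattern. Hspa5 was at 527, 763, 698 and 757 CPM in DSS and at 542, 1132, 2028 and 962 CPM in DSS_CA. The DSS libraries lay close together, whereas DSS_CA ran from the level of the lowest DSS library to far above the highest, which replicate 3 reached. The means were 686 ± 110.2 and 1166 ± 626 CPM (1.70-fold, log2 fold change 0.76, SE 0.406, edgeR adjusted p = 0.737), and without DSS_CA 3 the log2 fold change was 0.36. Hsp90b1 was at 543, 1572, 559 and 738 CPM in DSS and at 657, 801, 1755 and 604 CPM in DSS_CA. Here 1 library in each group, DSS 2 and DSS_CA 3, stood far above the others, and both belong to the 3 libraries of short counted genes. Its log2 fold change was 0.16 (SE 0.472, edgeR adjusted p = 0.999), and -0.31 without DSS_CA 3.

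Calr and Canx encode calreticulin and calnexin, the lectin chaperones that hold proteins by their sugars in the lumen and in the membrane. Calr was at 697, 336, 596 and 555 CPM in DSS and at 1132, 796, 559 and 799 CPM in DSS_CA, where replicate 3 alone lay within the DSS range (546 ± 152 against 822 ± 236 CPM, log2 fold change 0.59, SE 0.347, edgeR adjusted p = 0.795). Canx was at 424, 865, 339.7 and 527 CPM in DSS and at 478, 442, 789 and 379.6 CPM in DSS_CA. Its groups covered the same range, and again DSS 2 and DSS_CA 3 were the highest (log2 fold change -0.05, SE 0.381, edgeR adjusted p = 0.999, and 0.28 without DSS 2). The same 2 libraries were thus the lowest of their groups for Calr and the highest for Canx.

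Hyou1, which encodes the large chaperone that recharges BiP with nucleotide, was at 97.8, 26.6, 50.5 and 75.4 CPM in DSS and at 168, 121, 47.0 and 117 CPM in DSS_CA. DSS 2 and DSS_CA 3 were its lowest libraries (1.81-fold, log2 fold change 0.86, SE 0.457, edgeR adjusted p = 0.739). Dnajb11, a co-chaperone that hands clients to BiP, was at 108, 186, 146 and 139 CPM in DSS and at 171, 181, 278 and 170.2 CPM in DSS_CA. Of its DSS_CA libraries, 3 lay within 170.2 to 181 CPM, just below the highest DSS library (log2 fold change 0.47, SE 0.298, edgeR adjusted p = 0.848). Dnajc3, an inhibitor of Perk and a BiP co-chaperone that the tables do not list under this entry, was level at 133 ± 55.3 and 137 ± 21.7 CPM (log2 fold change 0.05, edgeR adjusted p = 0.999, and -0.18 without DSS 3).

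**Figure D4:**
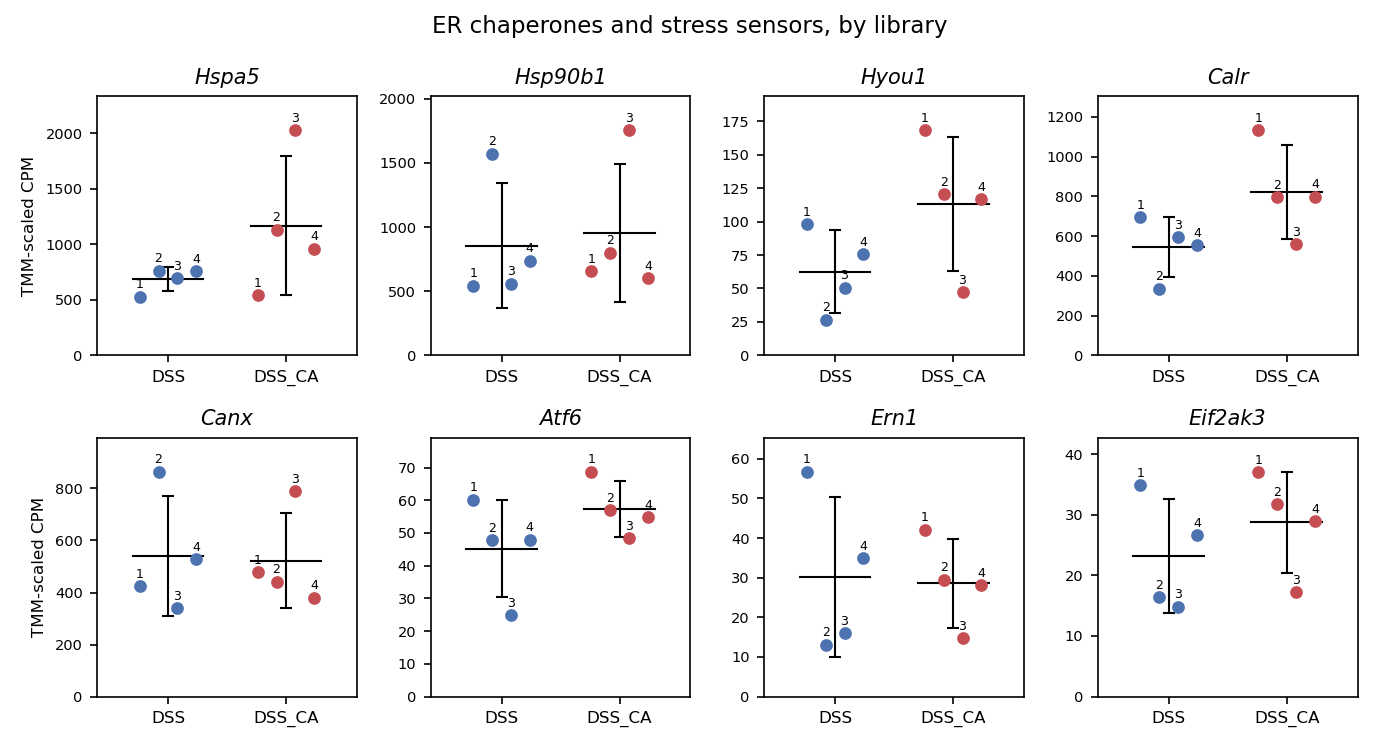
Level in TMM-scaled CPM (y axis, from 0) of 5 ER chaperone genes and 3 sensor genes in DSS (blue) and DSS_CA (red). Points are libraries marked with their replicate number, horizontal lines are means and bars are SD with n = 4; Hsp90b1 and Canx were highest in DSS 2 and DSS_CA 3, and Ern1 was highest in replicate 1 of both groups.

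Disulfide bond formation. P4hb and Pdia3, Pdia4 and Pdia6 encode isomerases that form and reshuffle disulfide bonds, and Ero1l and Ero1lb the oxidases that recharge them. Pdia4 was at 84.3, 152, 114 and 108 CPM in DSS and at 182, 179, 263 and 146 CPM in DSS_CA. The groups overlapped by 1 library each, DSS 2 and DSS_CA 4 (115 ± 28.1 against 193 ± 49.8 CPM, 1.68-fold, log2 fold change 0.75, SE 0.303, edgeR adjusted p = 0.535). Ero1l was at 48.5, 36.0, 23.6 and 35.6 CPM in DSS and at 72.8, 58.4, 52.5 and 50.7 CPM in DSS_CA, without overlap (log2 fold change 0.70, SE 0.293, edgeR adjusted p = 0.555). Its paralog Ero1lb, at 7.99 to 16.0 CPM in all libraries, had a log2 fold change of -0.26 (edgeR adjusted p = 0.966). P4hb was at 1619, 1606, 2979.6 and 1849 CPM in DSS and at 3011, 3071, 2002 and 3186 CPM in DSS_CA. The third replicate of each group stood on the side of the other group (log2 fold change 0.48, SE 0.354, edgeR adjusted p = 0.893). Pdia3, which works with calnexin and calreticulin, was at 461, 593, 454 and 414 CPM in DSS and at 586, 599, 901 and 500.3 CPM in DSS_CA (log2 fold change 0.43, edgeR adjusted p = 0.888). Pdia6 was at 137, 236, 187 and 147 CPM in DSS and at 229.5, 238, 205 and 212 CPM in DSS_CA, a narrow range in which DSS 2 also lay (log2 fold change 0.32).

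Glycan quality control. Uggt1 puts a glucose back on proteins that are not yet folded, Edem2 trims mannose from those that fail, Os9 delivers them for degradation, and Lman1 carries folded glycoproteins out. None of the 9 genes tested had groups that did not overlap. Lman1 was at 124, 167, 61.4 and 119 CPM in DSS and 159.9, 151, 178 and 162 CPM in DSS_CA (log2 fold change 0.46, edgeR adjusted p = 0.874). Its DSS_CA libraries lay within a narrow range, which DSS 2 reached, while DSS 3 was the lowest library. Edem2 was at 44.9, 36.2, 73.7 and 44.1 CPM in DSS and at 66.3, 76.9, 41.7 and 77.1 CPM in DSS_CA (log2 fold change 0.40, edgeR adjusted p = 0.915). Uggt1 was at 103, 43.7, 50.1 and 75.0 CPM in DSS and at 123, 86.5, 53.1 and 87.7 CPM in DSS_CA (log2 fold change 0.37, edgeR adjusted p = 0.946). Replicate 3 was the lowest DSS_CA library for both. Os9 was at 175, 125, 207 and 183 CPM in DSS and at 186, 203, 115 and 166 CPM in DSS_CA (log2 fold change -0.04, and 0.10 without DSS_CA 3).

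ER-associated degradation. The ligase Syvn1 and its partner Sel1l form the main retrotranslocation complex, Herpud1 and Vimp (selenoprotein S) help assemble it, Ube2j1 is a ubiquitin-conjugating enzyme anchored in the ER, Rnf185 a further ligase, and the ATPase Vcp pulls substrates into the cytosol. Vimp was at 46.1, 49.6, 61.8 and 46.9 CPM in DSS and at 71.7, 75.3, 87.4 and 80.8 CPM in DSS_CA. The spread was small and the groups did not overlap (51.1 ± 7.31 against 78.8 ± 6.89 CPM, 1.54-fold, log2 fold change 0.62, SE 0.250, edgeR adjusted p = 0.518). Ube2j1 was at 67.0, 67.0, 48.1 and 58.0 CPM in DSS and at 72.5, 78.5, 90.0 and 79.9 CPM in DSS_CA, also apart (log2 fold change 0.42, edgeR adjusted p = 0.813). Rnf185 was at 33.8, 28.7, 28.1 and 31.4 CPM in DSS and 37.3, 39.9, 34.3 and 50.8 CPM in DSS_CA, with less than 1 CPM between the groups (log2 fold change 0.41).

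The other degradation genes overlapped between the groups. Herpud1 was at 144, 94.5, 225 and 134 CPM in DSS and at 198, 259.9, 119 and 243 CPM in DSS_CA (log2 fold change 0.46, edgeR adjusted p = 0.907). Replicate 3 was the highest DSS library and the lowest DSS_CA library, as for P4hb. Sel1l was at 93.7, 62.0, 35.2 and 104 CPM in DSS and at 98.4, 109, 75.4 and 121 CPM in DSS_CA (log2 fold change 0.45, edgeR adjusted p = 0.911). Vcp was at 156, 121, 121 and 141 CPM in DSS and at 212, 176, 152 and 184 CPM in DSS_CA, where replicate 3 alone lay below the highest DSS library (log2 fold change 0.42, edgeR adjusted p = 0.822). Bcap31, which encodes an ER membrane chaperone, was at 123, 95.7, 143 and 107 CPM in DSS and at 177, 175, 119 and 192 CPM in DSS_CA (log2 fold change 0.50, edgeR adjusted p = 0.759). Here too replicate 3 was the DSS_CA library within the DSS range. Syvn1 was at 85.1, 25.9, 32.4 and 46.8 CPM in DSS and 95.8, 43.7, 23.4 and 67.2 CPM in DSS_CA (log2 fold change 0.28, edgeR adjusted p = 0.994), and without DSS_CA 1 the value was -0.087. Derl3, a retrotranslocation protein with an ER stress element, did not pass the filter, with 26 counts in the 4 DSS libraries and 16 in the 4 DSS_CA libraries.

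Unfolded protein response signalling. Ern1 encodes Ire1, which splices Xbp1 mRNA into the form that makes the active factor, Eif2ak3 encodes Perk, which slows translation through Eif2s1, and Atf6 is cut by proteases to release its own factor. Xbp1 was at 159.7, 121, 186 and 144 CPM in DSS and at 237, 243, 191 and 265 CPM in DSS_CA. The groups did not overlap, though DSS 3 and DSS_CA 3 lay close to each other (152 ± 27.3 against 234 ± 31.2 CPM, 1.54-fold, log2 fold change 0.62, SE 0.272, edgeR adjusted p = 0.612). The tables count whole genes, so that spliced and unspliced Xbp1 could not be told apart.

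The 3 sensors overlapped. Atf6 was at 60.2, 47.9, 24.9 and 47.9 CPM in DSS and at 68.8, 57.1, 48.4 and 54.9 CPM in DSS_CA (log2 fold change 0.34, edgeR adjusted p = 0.934). Ern1 was at 56.8, 13.1, 15.9 and 35.0 CPM in DSS and 42.1, 29.5, 14.7 and 28.2 CPM in DSS_CA (log2 fold change -0.08, edgeR adjusted p = 0.999, and 0.42 without DSS 1). Eif2ak3 was at 34.9, 16.4, 14.8 and 26.6 CPM in DSS and 37.1, 31.7, 17.2 and 28.9 CPM in DSS_CA (log2 fold change 0.31, edgeR adjusted p = 0.968). For Ern1 and Eif2ak3, replicate 1 was the highest library of each group and DSS 2, DSS 3 and DSS_CA 3 were low. Ern2, the Ire1 form of mucus-secreting epithelium, which is not in the entry by these tables, had a log2 fold change of -0.56 (edgeR adjusted p = 0.919). Atf4 and Ddit3, the factors below Perk, had 0.27 and -0.33 (edgeR adjusted p = 0.942 and 0.950).

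Eif2ak2, the interferon-induced kinase PKR that acts on the same translation factor as Perk, had the lowest log2 fold change of the 124 genes. It was at 68.7, 125, 25.9 and 67.2 CPM in DSS and at 27.3, 32.5, 83.8 and 28.0 CPM in DSS_CA. The 3 DSS_CA libraries other than replicate 3 lay together below every DSS library except replicate 3. With all libraries the log2 fold change was -0.74 (SE 0.501, edgeR adjusted p = 0.869), and without DSS 2, DSS 3 and DSS_CA 3 it was -1.25 (edgeR adjusted p = 0.0137). Eif2s1 was at 40.1, 141, 91.7 and 72.7 CPM in DSS and at 71.5, 91.4, 297 and 90.9 CPM in DSS_CA, where replicate 3 was far above the others (log2 fold change 0.67, edgeR adjusted p = 0.900, and -0.028 without that library). Traf2, an adaptor below Ire1, was at 22.1, 16.8, 42.5 and 27.3 CPM in DSS and at 18.2, 23.8, 15.4 and 19.1 CPM in DSS_CA (log2 fold change -0.51, edgeR adjusted p = 0.861).

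Among the signalling genes that did not pass the filter, Ppp1r15a, which reverses the block by Perk, had 241 counts in DSS and 242 in DSS_CA. Casp12, a caspase of the ER membrane, is given because of its values. It was at 1.39, 7.32, 2.78 and 3.40 CPM in DSS and at 0.104, 0.188, 1.42 and 0.162 CPM in DSS_CA. The groups overlapped by 1 library each, DSS 1 and DSS_CA 3, with 218 counts in all in DSS and 22 in DSS_CA. Fitted with no filter its log2 fold change was -3.08 (edgeR adjusted p = 0.075).

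Cytosolic roles. Rad23b encodes a shuttle that brings ubiquitinated protein to the proteasome. It was at 126, 116, 167 and 131 CPM in DSS and at 199.9, 207, 215 and 180.2 CPM in DSS_CA. The groups did not overlap (135 ± 22.2 against 201 ± 14.9 CPM, 1.49-fold, log2 fold change 0.57, SE 0.259, edgeR adjusted p = 0.636). Plaa, a partner of Vcp, was at 38.0, 23.4, 15.5 and 28.9 CPM in DSS and at 38.4, 33.0, 39.4 and 35.6 CPM in DSS_CA, where the spread was small (log2 fold change 0.47, edgeR adjusted p = 0.862).

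Bag2, a co-chaperone of Hsp70, had the largest log2 fold change of the 124 genes. The gene passed the filter through DSS_CA only, with a mean FPKM of 0.559 in DSS and 1.46 in DSS_CA. Bag2 was thus tested only because of its level in DSS_CA. It was at 1.81, 1.96, 3.76 and 2.06 CPM in DSS and at 5.07, 5.63, 6.47 and 4.47 CPM in DSS_CA. The groups did not overlap (2.40 ± 0.914 against 5.41 ± 0.850 CPM, 2.25-fold, log2 fold change 1.17, SE 0.359, edgeR adjusted p = 0.289), and without DSS 2, DSS 3 and DSS_CA 3 the log2 fold change was 1.35 (edgeR adjusted p = 0.0418). Hspbp1, another Hsp70 co-chaperone, had 0.46 with all libraries (edgeR adjusted p = 0.933) and 1.06 without those 3 (edgeR adjusted p = 0.0358).

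The other cytosolic chaperones named lay at or below 0 with all libraries. Hspa8, the constitutive Hsp70, had a log2 fold change of -0.00, from 832 to 2774 CPM in DSS and from 1625 to 2339 CPM in DSS_CA, and 0.46 without DSS 2, DSS 3 and DSS_CA 3. Dnajb1, a heat-inducible Hsp40, was at 52.0, 88.0, 93.6 and 63.7 CPM in DSS and at 43.7, 48.9, 62.0 and 49.0 CPM in DSS_CA (log2 fold change -0.55, SE 0.286, edgeR adjusted p = 0.727). Hspa4l, a relative of Hsp110, had -0.57 (edgeR adjusted p = 0.871). Hsp90aa1, the inducible cytosolic Hsp90, had the lowest value of the role at -0.63 (edgeR adjusted p = 0.899), which rested on DSS 2 at 546 CPM and was 0.058 without that library. The near-identical copies Hspa1a and Hspa1b share reads and are not reported singly.

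The 9 genes with an unadjusted p under 0.05 stand at these places on GRCm38 (mm10), from the deposited tables. Ssr1 (ENSMUSG00000021427) lies on chromosome 13 from 37971401 to 37994190 and Sec24d (ENSMUSG00000039234) on chromosome 3 from 123267455 to 123365641. Bag2 (ENSMUSG00000042215) lies on chromosome 1 from 33745484 to 33757795, and Vimp (ENSMUSG00000075701) on chromosome 7 from 66079649 to 66089405. Pdia4 (ENSMUSG00000025823) lies on chromosome 6 from 47796141 to 47813430 and Xbp1 (ENSMUSG00000020484) on chromosome 11 from 5520659 to 5525893. Sec23b (ENSMUSG00000027429) lies on chromosome 2 from 144556229 to 144590749 and Ero1l (ENSMUSG00000021831) on chromosome 14 from 45283092 to 45318572. Rad23b (ENSMUSG00000028426) lies on chromosome 4 from 55350043 to 55392237. The values are sums over whole genes and not over single exons.

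Genes of the same pathway that the entry leaves out were counted in 4 lists. Of 91 such genes 81 were tested, and 0 were called in either direction by edgeR. At an unadjusted p under 0.05, 2 of the 81 were higher and 3 lower, against 2.97% and 4.85% of all genes. Of the 81, 60 lay above 0, with a median of 0.24. Signal recognition particle, signal peptidase and ER membrane complex genes had 22 of 25 above 0 (median 0.31), other folding genes of the lumen 16 of 23 (0.25), cargo receptors and retrieval genes 13 of 19 (0.24), and further stress response genes 9 of 14 (0.13). Creld2, a stress-induced isomerase-like protein of the lumen, was at 36.7, 37.1, 50.4 and 44.9 CPM in DSS and at 82.8, 86.3, 54.3 and 77.7 CPM in DSS_CA. It was higher in each DSS_CA library than in any DSS library (log2 fold change 0.83, SE 0.271, edgeR adjusted p = 0.335), and without DSS 2, DSS 3 and DSS_CA 3 the value was 0.99 (edgeR adjusted p = 0.0252). Nupr1, a stress-induced chromatin protein, was at 15.4, 46.4, 47.2 and 29.1 CPM in DSS and at 4.49, 10.2, 13.7 and 8.51 CPM in DSS_CA. Its groups did not overlap either, in the other direction (log2 fold change -1.91, SE 0.439, edgeR adjusted p = 0.120), and DESeq2 gave an adjusted p of 0.00236. Without DSS 2, DSS 3 and DSS_CA 3 the log2 fold change of Nupr1 was -1.55 (edgeR adjusted p = 0.0541). With 1 library left out its smallest edgeR adjusted p was 0.0542. Of the others, Chac1 (a glutathione-degrading stress gene, 1.96), Emc6 (0.58), Srpr (0.57), Sec22b (0.46), Fam134b (a receptor for ER turnover, -1.11) and Agr3 (an isomerase relative, -1.29) had these log2 fold changes, and edgeR called none of them with all 8 libraries. Without DSS 2, DSS 3 and DSS_CA 3, Fam134b was called lower (log2 fold change -1.30, edgeR adjusted p = 0.0466).

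Beside these, and not tested against them, the N-glycan biosynthesis genes had a median log2 fold change of 0.37 with 35 of 40 above 0, and the aminoacyl-tRNA biosynthesis genes 0.52 with 36 of 40 above 0. In both, edgeR called 0 genes, and 2 and 13 of the 40 were higher at an unadjusted p under 0.05, against 2.97% of all genes. The ER protein processing genes, at 0.25, thus had the lowest of the 3 medians. They are not the whole KEGG entry, as Atf4, Ddit3 and the 13 genes shared with N-glycan biosynthesis were set aside. The N-glycan biosynthesis list keeps those 13.

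Markers of goblet cells, Paneth cells and lymphocytes lay the other way. Those of enteroendocrine and tuft cells are not given here. The 7 goblet markers, among them Muc2 and Tff3, summed to 7686 to 12233 CPM in DSS and 3259 to 7472 CPM in DSS_CA, and 7 of 7 lay below 0 (median -1.01). The 6 Paneth markers summed to 5644 to 36854 CPM in DSS and 4298 to 16999 CPM in DSS_CA, and 6 of 6 lay below 0 (median -1.41). The 8 plasma and B cell markers were low, at 50.6 to 76.2 CPM in DSS and 13.6 to 27.3 CPM in DSS_CA, with 4 of 4 tested below 0. The 7 T and NK cell markers summed to 274 to 661 CPM in DSS and 59.2 to 230.4 CPM in DSS_CA, with 7 of 7 below 0 and 1 called lower by edgeR (against 0.0908% of all genes). Fibroblast, muscle and endothelial markers reached at most 10.1 CPM in any library. No marker on these lists was at 0 in all libraries, and their part in the values of the ER genes was not tested.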

How the data were processed

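The authors deposited 1 table per library that holds raw counts and FPKM values of genes, by its header. The deposited FPKM could be rebuilt from the counts with 1 length per gene, within 1% for 17718 of 17718 genes checked. The submitters' processing notes name HISAT2, StringTie, GRCm38 and mm10, with no version. How the counts were made, with which annotation and whether by strand, is not given in the sources used here. A gene name that a spreadsheet had turned into a date was restored from the gene identifier for 1 of the 147 genes, and all 147 identifiers were matched to a symbol.

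Genes with an FPKM of at least 1 in at least 4 of 8 libraries were tested on counts with edgeR 4.0.16 (limma 3.58.1, R 4.3.3), by its quasi-likelihood test, two-sided, after TMM scaling, in a model with no term but the group. The Benjamini-Hochberg adjustment ran over the 9913 genes tested, with a threshold of 0.05. The SE was derived from the test, as the size of the log2 fold change over the root of its F value. The common biological coefficient of variation was 0.416. Alternatives were DESeq2 1.42.0, limma-voom, other scalings and filters, an offset for gene length, the replicate number as a block, mitochondrial genes left out, and libraries left out singly or as the 3 of shortest counted genes. The procedure was tested on simulated data. Python 3.11.15 was used with pandas 2.3.3 and numpy 2.4.6 for tables, and with matplotlib 3.10.9 for figures.

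The genes, their lists and the tests were chosen with earlier results of these data known. Named are, in each role, the 3 genes with the smallest p, 24 fixed genes, genes past the threshold and, in each list outside the entry, the 2 with the smallest p; members named beyond that rule, such as Casp12, were chosen after their values were seen. Some genes that the rule names are not reported here. Promoter windows were taken from RefSeq (GRCm38.p6), with 143 windows for 117 of the genes and 32851 for all, a gene counting once if any of its windows held the motif. Protein sequences were not used here.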

Additional observations from a re-analysis of the deposited data

Results flagged for a closer look

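In 15 of the 138 groups of 4 libraries checked for 69 named genes, 1 library lay so far from the other 3 that its gap to the nearest, over the range of the group, exceeded the 95% critical value of Dixon's test. The nominal rate of 1 in 20 groups is no fair comparison, because some of these genes were named after their values were seen. Genes in the same library also do not vary independently. Of the 15, 11 were in DSS_CA 3. There, Dnajb11 was high at 278 CPM, against 170.2 to 181 CPM in the other DSS_CA libraries, and Eif2ak2 was high at 83.8 CPM, against 27.3 to 32.5 CPM. In the same library, P4hb was low at 2002 CPM, against 3011 to 3186 CPM, Preb was low at 43.6 CPM, against 94.5 to 101 CPM, and Sec22b, a vesicle fusion gene outside the entry, was low at 62.0 CPM, against 70.8 to 71.9 CPM. In DSS_CA 3, too, Sec61g was high at 414 CPM, against 32.9 to 67.9 CPM, Eif2s1 at 297 CPM, against 71.5 to 91.4 CPM, and Sec62 at 133 CPM, against 64.6 to 73.6 CPM. Ssr3 was high there at 342 CPM, against 249 to 255 CPM, Hspa8 at 2339 CPM, against 1625 to 1742 CPM, and Casp12 at 1.42 CPM, against 0.104 to 0.188 CPM.

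Ckap4 in DSS_CA 1 was high at 13.8 CPM, against 9.16 to 9.60 CPM. Chac1, outside the entry, was high in DSS_CA 2 at 16.8 CPM, against 2.05 to 3.94 CPM, and its log2 fold change of 1.96 was lowest, at 0.81, with that library left out. Bag2 was high in DSS 3 at 3.76 CPM, against 1.81 to 2.06 CPM, and that value was still below every DSS_CA library. Hspbp1 was high in DSS 3 at 29.0 CPM, against 8.60 to 10.98 CPM.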

How the results depend on the processing

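No gene of the entry was called higher or lower under 17 of the 18 alternatives to the test with all libraries; without DSS 2, DSS 3 and DSS_CA 3 the counts were 3 higher and 1 lower, with fewer samples, and the cause was not tested. Counts higher at an unadjusted p under 0.05 were 9 with all libraries (7.26%, against 2.97% of all genes), 3 to 15 with 1 library left out (2.42% to 12.1%, against 1.19% to 6.23%), 7 with the replicate number as a block (5.65%, against 3.26%) and 25 without the 3 libraries (20.2%, against 12.5%). The median log2 fold change of 0.25 became 0.21 with DESeq2's size factors in edgeR, 0.21 with DESeq2, 0.21 with the offset for gene length, 0.31 with no filter (141 genes) and 0.28 with filterByExpr (131 genes). It lay between 0.19 and 0.30 with 1 library left out, and at 0.25 with the replicate block. The median of all genes stayed within -0.04 and 0.05. Replicate numbers showed no regular pairing: the deviations of same-numbered libraries correlated at 0.78, -0.38, 0.11 and 0.23. DSS 1 and DSS 3 correlated best with their own number in DSS_CA, and DSS 2 and DSS 4 did not. With the replicate block, Nupr1 passed (adjusted p = 0.0270), and no other named gene did.

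The sign of an uncalled log2 fold change differed in 35 of 1188 values, in 13 of 66 named genes. With 1 library left out, Canx lay between -0.32 and 0.28, Dnajc3 between -0.18 and 0.31, Ern1 between -0.33 and 0.42, Hsp90b1 between -0.31 and 0.64, Hsp90aa1 between -0.91 and 0.058, Sar1b between -0.16 and 0.64, Syvn1 between -0.087 and 0.72, Eif2s1 between -0.028 and 1.01, Hspa8 between -0.24 and 0.27, Os9 between -0.17 and 0.10, Sec61g between -1.04 and 0.97 and Sec62 between -0.53 and 0.18. With no filter Canx was at 0.019, Ern1 at 0.0035, Os9 at 0.024 and Hspa8 at 0.058, and Hspa8 was at 0.028 with filterByExpr. With limma-voom Ern1 was at 0.077 and Hspa8 at 0.12, and with the replicate block at 0.062 and 0.11. Without the 3 libraries Dnajc3 was at -0.11, Ddit3 at 0.018, Os9 at 0.017 and Hspa8 at 0.46. The filter on FPKM left out 23 of the 147 genes, of which all but those with no count were fitted without it.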
